A study of Mus musculus with 29 samples.

Results

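Solute carriers are membrane proteins that move amino acids, sugars, metal ions, nucleosides, metabolites and vitamins across the plasma membrane and the membranes of lysosomes, the endoplasmic reticulum, the Golgi apparatus and mitochondria. The 125 genes described here comprise 123 such carriers and Slc4a1ap and Slc9a3r1, which carry the symbol but are not transporters. They were selected from the array annotation by a symbol starting with Slc and a digit and by signal, with earlier results of these data known. For the signal, at least 3 of 29 arrays had to lie above 6.99, the median of all log2 values. The 125 are among the 7153 genes that passed that filter. Of the 262 solute carrier genes measured another 132 stayed under it and 5 (Slc40a1, Slc11a1, Slc11a2, Slc7a1 and Slc7a2) were left out by name. Just inside the filter were Slc6a17 and Slc22a12, whose third-highest arrays read 7.15 and 7.25, and just outside were Slc27a3 and Slc6a12, at 6.97 and 6.86. Of the 125 members, 109 lay above the filter on all 29 arrays. Slc1a4 passed only through its 5 IL-4+IL-6 arrays, Slc9b2 only through 6 unstimulated arrays and Slc24a3 through 9 arrays of 3 groups, so these genes had to differ between groups and their differences are given as values without a test. Counts of all 125 genes include their calls. The counts of the other 122 are given for the main comparisons and where a log2 difference of at least 1 was required.

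The cells were macrophages grown from the bone marrow of 8-week-old C57BL/6 mice for 7 days with CSF-1, the growth factor of the macrophage lineage, at 10 ng/ml in Teflon bags. For the last step of 24 h all groups kept CSF-1, and 10 ng/ml of each further cytokine was given: IL-4 (5 arrays), IL-6 (5), IL-10 (3), IL-4+IL-6 (5), IL-4+IL-10 (3) or none (unstimulated, 8). The labels do not say which arrays come from separate mice or cultures, so the p-values measure only the spread between these arrays.

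As background, IL-4 signals through STAT6 and moves macrophages towards the alternatively activated state, and IL-6 and IL-10 signal through STAT3. Macrophages use zinc and iron carriers to feed or starve intracellular microbes, and cationic amino acid carriers to supply arginine to nitric oxide synthase and arginase. Glutamine and leucine carriers feed growth signalling at the lysosome, and nucleotide sugar and ATP carriers of the endoplasmic reticulum and Golgi apparatus supply protein folding and glycosylation.

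Each value below is a log2 intensity of 1 probe set, and differences are log2 differences with their SE. Levels of different genes are not compared, since each probe set has its own response. A gene was called higher or lower when limma's adjusted p over all 7153 genes was under 0.05. The 10 macrophage markers listed, among them Csf1r, Adgre1 and Cd68, all lay above the filter. Their mean level was 11.98 to 12.12 with IL-4, 13.13 to 13.19 with IL-6, 13.03 to 13.13 with IL-10, 12.30 to 12.45 with IL-4+IL-6, 12.21 to 12.37 with IL-4+IL-10 and 12.56 to 12.75 unstimulated, and its part in the results was not tested. No marker of mast cells, fibroblasts, erythroid cells or T and NK cells lay above it. Of 6 measured B lineage markers, Cd79b, Ms4a1, Jchain and Ighm did. The mean level over that list was 6.67 to 7.71 with IL-4, 7.02 to 7.79 with IL-6, 6.27 to 6.33 with IL-10, 6.53 to 7.66 with IL-4+IL-6, 5.76 to 6.02 with IL-4+IL-10 and 6.29 to 7.83 in unstimulated arrays, and its part in the results was not tested. Of 5 measured neutrophil markers, S100a8, S100a9 and Camp lay above the filter. The mean level over all 5 was 8.23 to 8.57 with IL-4, 8.38 to 8.66 with IL-6, 8.66 to 8.95 with IL-10, 8.04 to 8.46 with IL-4+IL-6, 8.27 to 8.64 with IL-4+IL-10 and 8.46 to 8.88 unstimulated, its part also not tested. The 3' minus 5' difference of Actb, a measure of RNA integrity, was 0.322 ± 0.017 with IL-4, 0.248 ± 0.019 with IL-6, 0.342 ± 0.028 with IL-10, 0.363 ± 0.018 with IL-4+IL-6 and 0.419 ± 0.036 with IL-4+IL-10. It was 0.318 ± 0.0089 in unstimulated replicates 1 to 5 and 0.441 ± 0.070 in replicates 6 to 8 (mean ± SD). IL-6 arrays were below every other array, and the part of this measure in the results was not tested. In such bulk samples fewer cells of a type and less RNA per cell cannot be told apart.

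The IL-10 and IL-4+IL-10 arrays are set against all 8 unstimulated arrays, as are the other groups, so the comparisons share controls. Replicate numbers place unstimulated replicates 6 to 8 with the IL-10 groups and replicates 1 to 5 with the others, an inference that the labels do not state. Between these unstimulated arrays 14 members differed, 9 higher and 5 lower in replicates 6 to 8, among 641 higher and 392 lower of all genes tested. Slc13a3 (1.22) and Slc38a10 (0.78) differed most, and values within one set of arrays are given where they end a printed call or move a called value by over 1.5 times. For IL-4+IL-10 against IL-4 each group lies in a different set, so no within-set value exists and a fit with a term for the set stands in for it.

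The combinations called more of these genes than the single cytokines, as they did across all genes tested. With IL-4, 30 of the 125 genes were called higher and 43 lower, which is 24% and 34.4% of them, against 27.6% and 31.9% of all genes tested. With IL-6, 34 of the 125 genes were called higher and 18 lower, which is 27.2% and 14.4% of them, against 16.1% and 23.2% of all genes tested. With IL-10, 31 of the 125 genes were called higher and 20 lower, which is 24.8% and 16% of them, against 18.3% and 19.5% of all genes tested. In that last comparison the arrays of the second set alone called 22 higher and 8 lower, 17.6% and 6.4%, against 8.98% and 10.5% of all genes in that fit. With IL-4+IL-6, 53 of the 125 genes were called higher and 44 lower, which is 42.4% and 35.2% of them, against 35% and 38.8% of all genes tested. With IL-4+IL-10, 49 of the 125 genes were called higher and 40 lower, which is 39.2% and 32% of them, against 38.1% and 34% of all genes tested. Without Slc1a4, Slc9b2 and Slc24a3, the genes called higher and lower of the other 122 were 30 and 41 with IL-4, 33 and 17 with IL-6, 30 and 19 with IL-10, 52 and 42 with IL-4+IL-6 and 48 and 38 with IL-4+IL-10. The median differences of the 125 genes were -0.04 with IL-4, 0.02 with IL-6, 0.04 with IL-10, 0.06 with IL-4+IL-6 and 0.02 with IL-4+IL-10, against medians of -0.01, -0.03, 0.00, -0.02 and 0.02 over all genes. Most shares lay near the background, and the widest gaps among these were both IL-6 shares and the higher calls with IL-4+IL-6.

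Against IL-4 alone, in IL-4+IL-6 arrays 51 of the 125 genes were called higher and 31 lower, which is 40.8% and 24.8% of them, against 29.4% and 31.2% of all genes tested. Again against IL-4 alone, in IL-4+IL-10 arrays 41 of the 125 genes were called higher and 23 lower, which is 32.8% and 18.4% of them, against 32.7% and 24.6% of all genes tested. With a term for the array set the counts for IL-4+IL-10 were 26 higher and 12 lower, 20.8% and 9.6%, against 17% and 16.1% of all genes in that fit. An interaction is the change that IL-6 or IL-10 made on top of IL-4 minus the change it made alone, so 0 means that the log2 effects add. By the interaction of IL-4 and IL-6, 30 of the 125 genes were called higher and 17 lower, which is 24% and 13.6% of them, against 21.4% and 18.6% of all genes tested. By the interaction of IL-4 and IL-10, 17 of the 125 genes were called higher and 16 lower, which is 13.6% and 12.8% of them, against 15.5% and 10.1% of all genes tested. The lower calls of that interaction numbered 9 without IL-4+IL-10 replicate 3, and at an adjusted p under 0.01 it had 11 higher and 8 lower. Of the 122 genes without those 3, the counts were 49 and 30 for IL-4+IL-6 against IL-4, 39 and 22 for IL-4+IL-10 against IL-4, 29 and 17 for the interaction with IL-6 and 16 and 16 for that with IL-10.

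**Figure D1:**
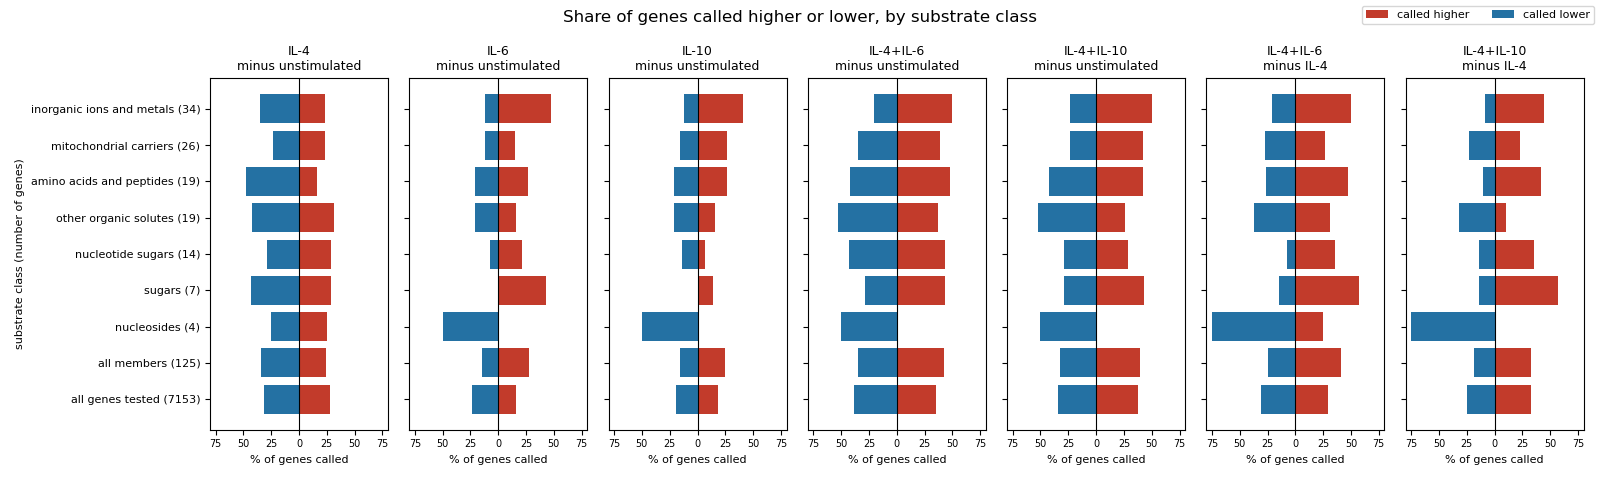
Percent of genes called higher (red, right of 0) and lower (blue, left of 0) at an adjusted p under 0.05, by substrate class (rows, with the number of genes) and comparison (panels). Among 34 carriers of inorganic ions and metals, Slc9b2 and Slc24a3 included, 16 were called higher and 4 lower with IL-6. Of all genes tested, 16.1% and 23.2% were. With IL-4, 8 of these carriers were called higher and 12 lower, against 27.6% and 31.9% of all genes tested.

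Carriers of inorganic ions and metals were the largest class, with 34 members placed by gene family. Without Slc9b2 and Slc24a3, the 32 others were called 8 higher and 10 lower with IL-4, against 27.6% and 31.9% of all genes as above. The counts were 15 and 3 with IL-6 (all genes 16.1% and 23.2%), 13 and 3 with IL-10 (18.3% and 19.5%), 17 and 5 with IL-4+IL-6 (35% and 38.8%) and 17 and 6 with IL-4+IL-10 (38.1% and 34%). Their median differences were -0.02 with IL-4, 0.10 with IL-6, 0.11 with IL-10, 0.12 with IL-4+IL-6 and 0.13 with IL-4+IL-10. These are counts of a list, and they carry no test of their own.

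The zinc exporter Slc30a4, which moves zinc out of the cytosol into vesicles, rose with IL-4 in every group that received it. It read 11.62, 11.59, 11.37, 11.52 and 11.36 with IL-4, 11.47, 11.31, 11.32, 11.31 and 11.37 with IL-4+IL-6 and 11.50, 11.53 and 11.75 with IL-4+IL-10. Against these, it read 9.37, 9.33, 9.26, 9.39 and 9.41 with IL-6, 9.35, 9.25 and 9.37 with IL-10 and, over the unstimulated arrays, a lowest, median and highest value of 9.25, 9.37 and 9.58. Every array with IL-4 lay above every array without it. The difference with IL-4 was 2.11 ± 0.052 (adjusted p = 1.01e-22), a 4.31-fold higher intensity, and those with IL-4+IL-6 and IL-4+IL-10 were 1.97 ± 0.052 and 2.21 ± 0.062. With IL-6 alone and IL-10 alone the differences of -0.03 ± 0.052 and -0.06 ± 0.062 did not pass the test. The promoter window of Slc30a4, shown because this carrier had the largest increase with IL-4, held none of the 3 motifs searched. They were TTC and GAA separated by 4 bases (the STAT6-type motif), TTC and GAA separated by 3 bases (the STAT-type motif) and TGATGNAA (the amino acid response core), on both strands. The STAT6-type motif was in 7 of 138 member windows (5.07%) against 6.95% of all 32851 windows, the STAT-type motif in 4 (2.9%) against 8.3%, and the response core in 4 (2.9%) against 3.97%. Windows run from 250 bases before to 50 bases after the start of transcription, are from RefSeq on GRCm38.p6 and exist for 98 members. The Slc30a4 window (chr2:122702614-122702913, minus strand) is printed 5′ to 3′ in lower case, as no motif was found.
Slc30a4: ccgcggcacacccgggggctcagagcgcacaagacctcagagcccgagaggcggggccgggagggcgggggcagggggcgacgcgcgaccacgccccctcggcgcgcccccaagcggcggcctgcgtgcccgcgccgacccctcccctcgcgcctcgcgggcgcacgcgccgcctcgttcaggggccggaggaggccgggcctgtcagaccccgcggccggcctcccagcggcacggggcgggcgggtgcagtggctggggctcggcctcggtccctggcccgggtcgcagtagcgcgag

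The zinc importers Slc39a14 (ZIP14, which also carries iron and manganese) and Slc39a8 (ZIP8, which also carries manganese) rose with IL-6 and with IL-10. Slc39a14 read 9.08, 9.01, 9.06, 9.06 and 9.41 with IL-6 and 9.22, 9.38 and 9.18 with IL-10, against 7.45, 7.61 and 7.75 as the lowest, median and highest unstimulated values. The differences were 1.53 ± 0.059 (adjusted p = 1.42e-17) and 1.66 ± 0.071 (adjusted p = 2.07e-16), 2.89-fold and 3.17-fold, and no values overlapped. It read 7.44, 7.32, 7.53, 7.49 and 7.43 with IL-4, 8.50, 8.39, 8.37, 8.29 and 8.39 with IL-4+IL-6 and 8.01, 8.02 and 7.93 with IL-4+IL-10. The differences from unstimulated were -0.15 ± 0.059, 0.79 ± 0.059 and 0.39 ± 0.071 for these groups, so both combinations lay between the single cytokines. The small fall with IL-4 was not called on the mean of its probe sets (-0.10) or without replicate 2 or 5 of IL-4 or replicate 2 or 4 of the unstimulated arrays. The interactions were -0.58 ± 0.089 with IL-6 (adjusted p = 5.99e-06) and -1.12 ± 0.10 with IL-10 (adjusted p = 6.27e-09). Averaged over the single-gene probe sets of this gene, the differences were 1.002 with IL-6 and 0.98 with IL-10, and the interactions were -0.26 and -0.66.

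Slc39a8 resembled Slc39a14 with IL-6, IL-10 and IL-4+IL-6 and differed from it with IL-4 and with IL-4+IL-10. It read 8.92, 8.77, 8.95, 8.90 and 9.25 with IL-6 and 9.11, 9.08 and 9.24 with IL-10, against 7.45, 7.67 and 7.77 (lowest, median and highest) unstimulated. The differences were 1.33 ± 0.084 and 1.51 ± 0.10 (adjusted p = 4.38e-13 and 1.52e-12). With IL-4 it read 6.51, 6.55, 7.15, 6.74 and 6.64, a mean under the filter and a difference of -0.91 ± 0.084. With IL-4+IL-6 it read 8.52, 8.60, 8.57, 8.47 and 8.48, which was 0.90 ± 0.084 from unstimulated and 1.81 ± 0.094 from IL-4. With IL-4+IL-10 it read 7.62, 7.40 and 7.58, which overlapped the unstimulated arrays (-0.09 ± 0.10). The interaction was 0.48 ± 0.13 with IL-6, which lost its call on the mean of the gene's probe sets (0.09), and -0.70 ± 0.15 with IL-10.

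**Figure D2:**
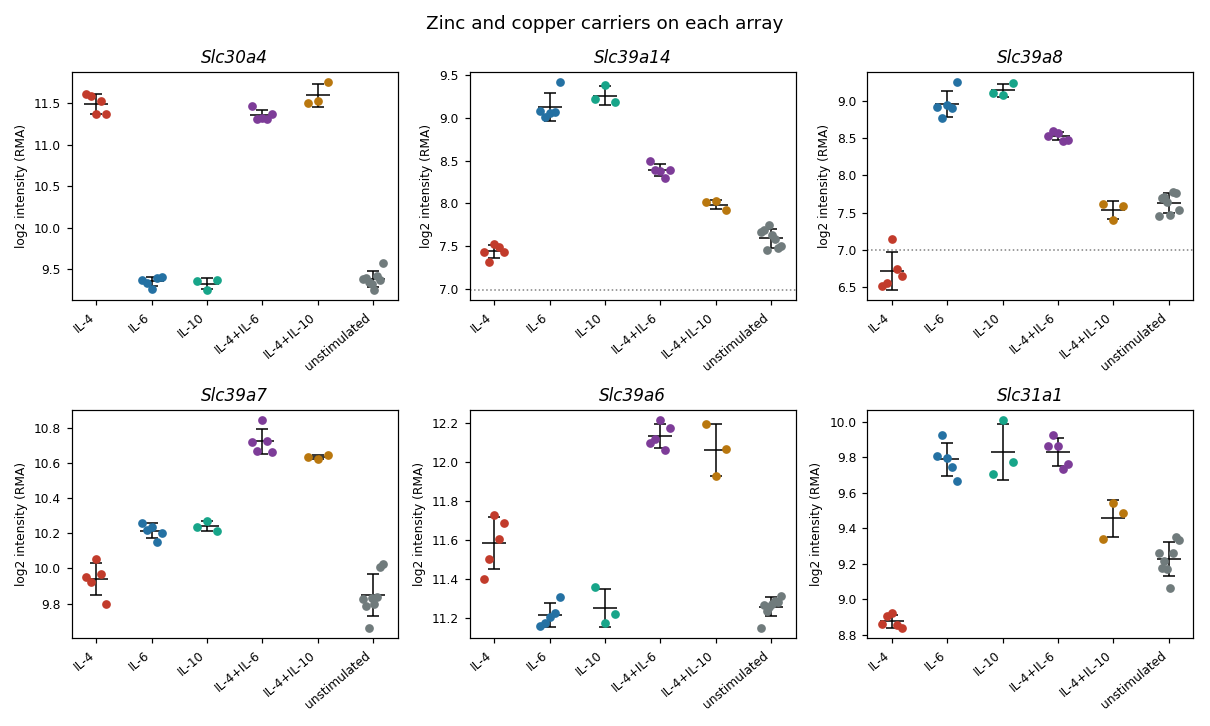
Log2 intensity (RMA) on each array of 6 zinc and copper carriers, with 1 point per array, the group mean as a horizontal tick and the SD as a vertical bar. The dotted line is the filter at 6.99. Slc30a4 is high in all 3 groups with IL-4, Slc39a14 and Slc39a8 are highest with IL-6 or IL-10 alone, and Slc39a7 and Slc39a6 are highest in both combinations.

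Slc39a7 (ZIP7, which releases zinc from the endoplasmic reticulum) and Slc39a6 (ZIP6, a zinc importer of the plasma membrane) were highest in the combinations. Slc39a7 read 10.72, 10.66, 10.84, 10.73 and 10.66 with IL-4+IL-6 and 10.64, 10.62 and 10.64 with IL-4+IL-10, against 9.95, 9.92, 10.05, 9.97 and 9.80 with IL-4 and 9.66, 9.83 and 10.03 (lowest, median and highest) unstimulated. It rose by 0.88 ± 0.048 and 0.79 ± 0.057 with the combinations, and by 0.37 ± 0.048 and 0.39 ± 0.057 with IL-6 and IL-10 alone, and its interactions were 0.42 ± 0.072 and 0.30 ± 0.084. Slc39a6 read 12.09, 12.12, 12.21, 12.06 and 12.17 with IL-4+IL-6 and 12.19, 11.92 and 12.06 with IL-4+IL-10, against 11.40, 11.50, 11.73, 11.60 and 11.68 with IL-4 and 11.15, 11.27 and 11.31 unstimulated. Both combinations lay above every other array, while IL-6 and IL-10 alone stayed near unstimulated (-0.04 ± 0.049 and -0.01 ± 0.059). The interactions of Slc39a6 were 0.59 ± 0.074 with IL-6 and 0.48 ± 0.086 with IL-10 (adjusted p = 2.63e-07 and 1.24e-04).

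The copper importer Slc31a1 (CTR1) rose with IL-6 (0.56 ± 0.053), IL-10 (0.60 ± 0.063) and IL-4+IL-6 (0.60 ± 0.053) and fell with IL-4 (-0.35 ± 0.053). It averaged 9.83 ± 0.079 with IL-4+IL-6 and 8.88 ± 0.037 with IL-4 (SD, n = 5 each). With IL-4+IL-10 the difference of 0.23 ± 0.063 lost its call within the second set of arrays (0.14). The potassium-chloride cotransporter Slc12a7 (KCC4) was called higher with each stimulation, by 0.21 ± 0.044 with IL-4, 0.53 ± 0.044 with IL-6, 0.61 ± 0.052 with IL-10, 0.77 ± 0.044 with IL-4+IL-6 and 0.57 ± 0.052 with IL-4+IL-10. The sulfate carrier Slc26a2 rose by 0.59 ± 0.057 with IL-4+IL-6 and 0.34 ± 0.067 with IL-4+IL-10. Over all arrays, IL-6 and IL-10 alone gave 0.21 ± 0.057 and 0.27 ± 0.067 for it. The magnesium carrier Slc41a1 rose by 0.38 ± 0.063 with IL-6 and 0.34 ± 0.075 with IL-10. Slc9b2, a sodium-proton exchanger known from osteoclasts, stayed under the filter on every stimulated array, with a mean of 5.10 ± 0.11 for IL-4+IL-6 (SD, n = 5), against 6.96, 7.31 and 7.50 (lowest, median and highest) unstimulated. The calcium exchanger Slc24a3 had means of 5.37 ± 0.25 with IL-4, 7.36 ± 0.21 with IL-6, 7.65 ± 0.22 with IL-10 and 6.71 ± 0.27 unstimulated (SD).

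Slc1a4 aside, the carriers of amino acids and peptides numbered 18. Of these, 3 were called higher and 9 lower with IL-4 (27.6% and 31.9% of all genes tested). The counts were 5 and 4 with IL-6 (16.1% and 23.2%) and 5 and 4 with IL-10 (18.3% and 19.5%). With IL-4+IL-6 they were 8 and 8 (35% and 38.8%), and with IL-4+IL-10 7 and 8 (38.1% and 34%). Added to IL-4, IL-6 gave 8 and 5 (29.4% and 31.2%) and IL-10 gave 7 and 2 (32.7% and 24.6%). Slc7a8 and Slc7a7 were the 2 of the 18 not called with IL-4+IL-6.

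Slc7a7, the light chain of a carrier that exports arginine and other cationic amino acids, moved in opposite directions with IL-4 and with IL-6 or IL-10. It read 8.79, 8.64, 8.61, 8.62 and 8.64 with IL-6, 8.70, 8.79 and 8.56 with IL-10 and 6.84, 6.70, 6.84, 6.80 and 6.55 with IL-4, against 7.71, 7.79 and 7.90 (lowest, median and highest) unstimulated. It rose by 0.86 ± 0.056 and 0.89 ± 0.067 and fell by 1.05 with IL-4 (SE 0.056, adjusted p = 3.61e-15), where its mean lay under the filter. With IL-4+IL-6 it read 7.91, 7.80, 7.79, 7.93 and 7.70, overlapping the unstimulated values (0.03 ± 0.056), and with IL-4+IL-10 it read 7.14, 7.41 and 7.09 (-0.58 ± 0.067). Its interaction was 0.22 ± 0.084 with IL-6, lost within the first set of arrays (0.20), and -0.42 ± 0.099 with IL-10.

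The neutral amino acid carriers Slc1a4 (ASCT1) and Slc7a5 (LAT1, which brings in leucine) and the lysosomal carrier Slc66a1 (PQLC2, which releases arginine and lysine) were highest with IL-4+IL-6. Slc1a4 read 7.61, 7.48, 7.42, 7.43 and 7.26 with IL-4+IL-6 and 6.81, 6.96 and 6.92 with IL-4+IL-10. It read 5.79 to 6.36 with IL-4, 5.92 to 6.16 with IL-6, 5.92 to 6.22 with IL-10 and 5.72, 5.96 and 6.39 (lowest, median and highest) unstimulated, all under the filter. Its difference with IL-4+IL-6 was 1.45 from unstimulated and 1.38 from IL-4, and with IL-4+IL-10 0.91 and 0.84. Slc7a5 read 8.07, 7.85, 8.00, 8.04 and 8.07 with IL-4+IL-6, 7.69, 7.74 and 7.56 with IL-4+IL-10 and 7.31, 7.23, 7.55, 7.35 and 7.47 with IL-4, against 6.45, 6.92 and 7.21 unstimulated, where its mean lay under the filter. It rose by 1.13 ± 0.096, 0.79 ± 0.11 and 0.50 ± 0.096, with IL-6 alone and IL-10 alone at 0.08 ± 0.096 and 0.08 ± 0.11, and its interaction with IL-6 was 0.55 ± 0.14. Its heavy chain Slc3a2 was called higher in both combinations (0.34 ± 0.050 and 0.28 ± 0.059) and not with the single cytokines (0.02 ± 0.050, 0.11 ± 0.050 and 0.06 ± 0.059).

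Slc66a1 read 10.05, 10.01, 10.02, 9.88 and 9.96 with IL-4+IL-6, 9.38, 9.35, 9.33, 9.35 and 9.44 with IL-6 and 8.84, 8.66, 8.89, 8.86 and 8.79 with IL-4, against 8.83, 8.91 and 9.11 (lowest, median and highest) unstimulated. It rose by 1.06 ± 0.045 with IL-4+IL-6 (adjusted p = 4.82e-18), 0.44 ± 0.045 with IL-6, 0.49 ± 0.053 with IL-10 and 0.62 ± 0.053 with IL-4+IL-10. The interaction with IL-6 was 0.73 ± 0.067 (adjusted p = 9.59e-10). Among the 98 members with a window, the response core was found only in windows of Slc1a4, Slc7a7 and Slc50a1. Slc1a4 and Slc7a7 are shown because the core is a known element of genes induced by amino acid shortage. The capitals mark it: bases 247 to 254 of the Slc1a4 window (chr11:20332664-20332963, minus strand), read there on the opposite strand, and bases 110 to 117 and 250 to 257 of 1 of 5 Slc7a7 windows (chr14:54417895-54418194, minus strand). The values of both genes differ as given above, and a match is a description of letters only.
Slc1a4: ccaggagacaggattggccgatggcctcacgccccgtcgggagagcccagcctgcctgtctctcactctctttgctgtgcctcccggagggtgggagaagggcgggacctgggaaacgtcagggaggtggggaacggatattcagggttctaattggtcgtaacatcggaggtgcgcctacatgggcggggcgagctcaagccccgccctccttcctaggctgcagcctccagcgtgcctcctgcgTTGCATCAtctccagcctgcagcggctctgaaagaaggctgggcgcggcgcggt
Slc7a7: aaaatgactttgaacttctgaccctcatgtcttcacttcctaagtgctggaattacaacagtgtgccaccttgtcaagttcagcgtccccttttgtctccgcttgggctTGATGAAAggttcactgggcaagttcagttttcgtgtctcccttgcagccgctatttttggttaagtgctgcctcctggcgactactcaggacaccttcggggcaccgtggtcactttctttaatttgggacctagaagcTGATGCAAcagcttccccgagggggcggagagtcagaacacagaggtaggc

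**Figure D3:**
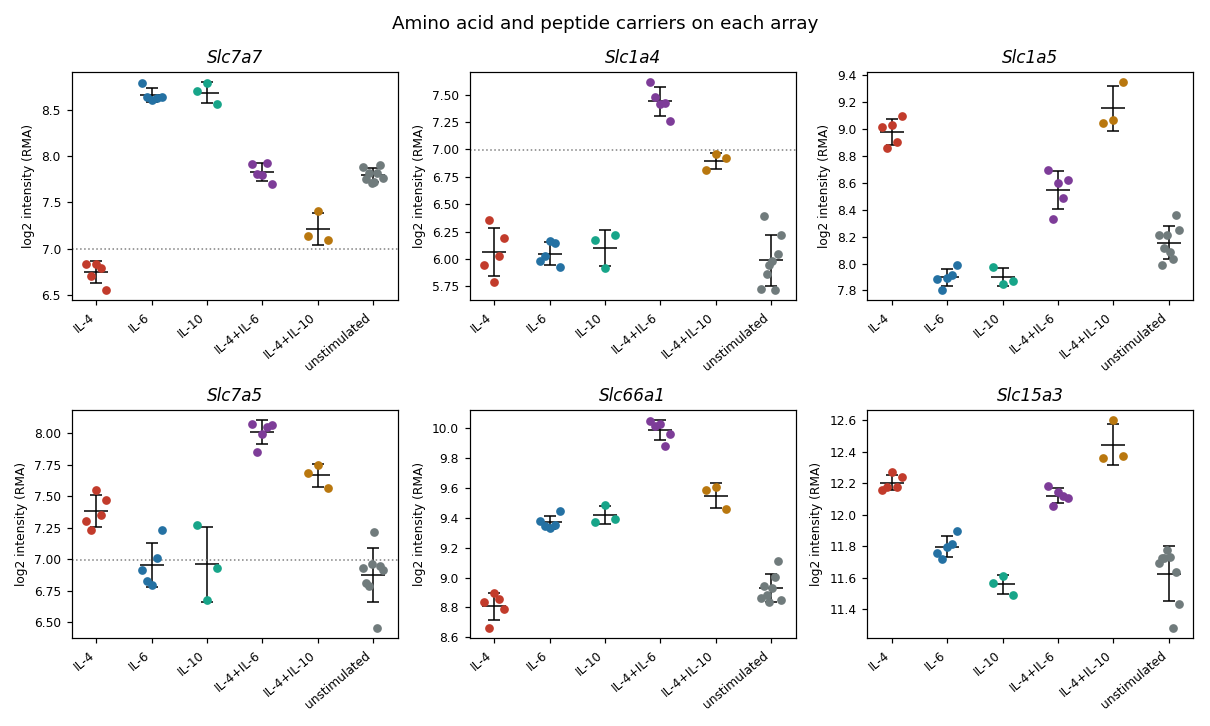
Log2 intensity (RMA) on each array of 6 carriers of amino acids and peptides, with 1 point per array, the group mean as a horizontal tick and the SD as a vertical bar. The dotted line is the filter at 6.99. Slc1a4, Slc7a5 and Slc66a1 are highest with IL-4+IL-6, Slc1a5 and Slc15a3 with IL-4+IL-10, and Slc7a7 with IL-6 or IL-10 alone.

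The glutamine carrier Slc1a5 (ASCT2) followed another order, highest with IL-4+IL-10 and IL-4. It read 9.02, 8.85, 9.03, 8.90 and 9.09 with IL-4, 8.69, 8.33, 8.60, 8.49 and 8.62 with IL-4+IL-6 and 9.04, 9.07 and 9.35 with IL-4+IL-10, against 7.99, 8.16 and 8.36 (lowest, median and highest) unstimulated. The differences were 0.82 ± 0.064, 0.39 ± 0.064 and 0.995 ± 0.076, IL-4+IL-6 lay below IL-4 (-0.43 ± 0.071), and IL-4+IL-10 was not called against IL-4 (0.17 ± 0.082). With IL-6 alone it fell (-0.26 ± 0.064), and the fall with IL-10 (-0.26 ± 0.076) missed the threshold within the second set (-0.31). Slc15a3, a lysosomal carrier of histidine and peptides, rose by 0.58 ± 0.063 with IL-4, 0.50 ± 0.063 with IL-4+IL-6 and 0.82 ± 0.074 with IL-4+IL-10, while its relative Slc15a4 was lower, with log2 differences of -0.56 ± 0.075, -0.62 ± 0.075 and -0.35 ± 0.089. The call of Slc15a3 with IL-6 (0.17 ± 0.063) was lost within the first set (0.07). The peptide carrier Slc15a2 was lower, with a log2 difference of -1.11 ± 0.20 with IL-4+IL-6, and its fall with IL-4+IL-10 (-0.68 ± 0.24) was not called within the second set (-0.81) or without replicate 1 of that group (-0.41).

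The creatine carrier Slc6a8 fell with IL-6 (-0.51 ± 0.049) and IL-10 (-0.66 ± 0.059) on both of its probe sets, whose second gave -0.31 and -0.54. With IL-4+IL-6 and IL-4+IL-10 the probe sets were called in opposite directions, at -0.76 ± 0.049 and -0.37 ± 0.059 against 0.19 and 0.29, so no direction is given there. Slc7a8 (LAT2), another carrier of large neutral amino acids, rose with IL-6 (0.38 ± 0.099) and IL-10 (0.73 ± 0.12, or 0.47 within the second set) and fell with IL-4 (-0.53 ± 0.099). Slc38a10 read 10.53, 10.50 and 10.48 with IL-10 and 10.78, 10.64 and 10.82 with IL-4+IL-10, against 9.42, 9.78 and 10.40 (lowest, median and highest) unstimulated. Its difference with IL-10 (0.62 ± 0.19) was 0.14 and not called within the second set, and that between IL-4+IL-10 and IL-4 (1.10 ± 0.21) was 0.32 and not called with a term for the set. Within sets it stayed called with IL-4+IL-10 (0.38, against 0.87 ± 0.19) and IL-4+IL-6 (0.78, against 0.49 ± 0.16). Over all arrays, not within sets, the mean of its probe sets gave 0.56 and 0.31 for these groups.

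Of the 7 sugar carriers, 2 were called higher and 3 lower with IL-4 (27.6% and 31.9% of all genes tested). The counts were 3 and 0 with IL-6 (16.1% and 23.2%) and 1 and 0 with IL-10 (18.3% and 19.5%). In each combination they were 3 and 2 (35% and 38.8% with IL-4+IL-6, 38.1% and 34% with IL-4+IL-10). The glucose importer Slc2a3 (GLUT3) and the sugar phosphate carrier Slc37a2 fell wherever IL-4 was present. Slc37a2 read 9.95, 9.95, 10.27, 10.12 and 10.26 with IL-4, 10.01, 9.95, 10.21, 10.11 and 10.23 with IL-4+IL-6 and 10.55, 10.39 and 10.38 with IL-4+IL-10, against 10.95, 11.06 and 11.15 (lowest, median and highest) unstimulated. No value overlapped, and the differences were -0.96 ± 0.058, -0.97 ± 0.058 and -0.63 ± 0.069. Slc2a3 was lower, with log2 differences of -0.89 ± 0.071 with IL-4, -0.88 ± 0.071 with IL-4+IL-6 and -0.84 ± 0.085 with IL-4+IL-10, and IL-6 or IL-10 alone left -0.08 ± 0.071 and 0.08 ± 0.085. The glucose importer Slc2a1 (GLUT1) rose with IL-4 (0.36 ± 0.076), and IL-4+IL-6 lay below IL-4 (-0.29 ± 0.085). The glucose 6-phosphate carrier Slc37a4 of the endoplasmic reticulum rose by 0.72 ± 0.053 with IL-4+IL-6, 0.38 ± 0.063 with IL-4+IL-10 and 0.22 ± 0.053 with IL-4. Slc37a3 rose by 0.77 ± 0.048 and 0.55 ± 0.057 in the combinations, and by 0.35 and 0.19 on its other probe set. IL-6 alone gave 0.17 ± 0.048 on the brighter one. Slc2a8, a glucose carrier of inner membranes, fell with IL-4 (-0.29 ± 0.047) and rose with IL-6 (0.24 ± 0.047) and IL-10 (0.33 ± 0.055).

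Among the 4 nucleoside and nucleobase carriers, 1 was called higher and 1 lower with IL-4 (27.6% and 31.9% of all genes tested). None was called higher and 2 were called lower with IL-6, with IL-10 and with each combination. Of all genes tested, 16.1% and 23.2% were called higher and lower with IL-6 and 18.3% and 19.5% with IL-10. The shares of all genes were 35% and 38.8% with IL-4+IL-6 and 38.1% and 34% with IL-4+IL-10. The plasma membrane carrier Slc29a1 (ENT1) read 7.86, 7.64, 7.59, 7.78 and 7.58 with IL-6, 7.62, 7.56 and 7.45 with IL-10, 7.64, 7.52, 7.55, 7.46 and 7.60 with IL-4+IL-6 and 7.74, 7.97 and 7.69 with IL-4+IL-10. IL-4 arrays read 8.05, 8.26, 8.22, 8.19 and 8.26, against 8.02, 8.23 and 8.29 (lowest, median and highest) unstimulated. Every array with IL-6 or IL-10 lay below every array without them. The differences were -0.49 ± 0.058, -0.64 ± 0.069, -0.63 ± 0.058 and -0.38 ± 0.069, and IL-4 alone gave 0.02 ± 0.058. The nucleobase carrier Slc43a3 was lower, with log2 differences of -1.02 ± 0.10 with IL-4+IL-6 and -0.94 ± 0.12 with IL-4+IL-10, to means under the filter, and IL-6 or IL-10 alone gave -0.18 ± 0.10 and -0.08 ± 0.12. With IL-4 alone it was also called lower over all arrays, at a mean of 7.37 against 7.66 unstimulated. The lysosomal carrier Slc29a3 (ENT3) rose with IL-4 (0.32 ± 0.071, or 0.21 within the first set), and its fall with IL-10 (-0.36 ± 0.085) lost its call within the second set (-0.18). The vesicular nucleotide carrier Slc17a9 was called with IL-6 among the single cytokines (-0.18 ± 0.062), a call that was lost without replicate 1, 2, 3 or 5 of the IL-6 arrays.

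The 14 carriers of the nucleotide sugar family were called 4 higher and 4 lower with IL-4 (27.6% and 31.9% of all genes tested). The counts were 3 and 1 with IL-6 (16.1% and 23.2%) and 1 and 2 with IL-10 (18.3% and 19.5%). With IL-4+IL-6 they were 6 and 6 (35% and 38.8%), and with IL-4+IL-10 4 and 4 (38.1% and 34%). Slc35b1, which brings ATP into the endoplasmic reticulum, rose with each stimulation and most in the combinations. It read 11.33, 11.25, 11.31, 11.27 and 11.21 with IL-4+IL-6 and 11.24, 11.39 and 11.39 with IL-4+IL-10. It read 10.74, 10.67, 10.81, 10.72 and 10.79 with IL-4, 10.76, 10.69, 10.69, 10.66 and 10.76 with IL-6 and 10.72, 10.62 and 10.58 with IL-10, against 10.13, 10.30 and 10.35 (lowest, median and highest) unstimulated. The combinations lay above the single cytokines and these above every unstimulated array, with differences of 0.99 ± 0.037 and 1.06 ± 0.044 for the combinations and 0.46 ± 0.037, 0.43 ± 0.037 and 0.36 ± 0.044 for IL-4, IL-6 and IL-10. The interactions were 0.10 ± 0.056 with IL-6, which was not called, and 0.24 ± 0.065 with IL-10. Slc35d1, a carrier of UDP-glucuronic acid and UDP-N-acetylgalactosamine, rose by 0.49 ± 0.067 and 0.42 ± 0.080 in the combinations, and IL-6 alone gave 0.24 ± 0.067. The UDP-galactose carrier Slc35a2 rose by 0.65 ± 0.069 with IL-4+IL-6 on its brightest probe set, while its others gave 0.57, 0.01 and 0.01. The Slc35b1 window (chr11:95384606-95384905, plus strand) is shown because this gene moved in all 5 groups and holds the STAT-type motif, in capitals at bases 185 to 193. Among the 98 members with a window, Slc25a36, Slc35b4 and Slc46a3 were the others with that motif.
Slc35b1: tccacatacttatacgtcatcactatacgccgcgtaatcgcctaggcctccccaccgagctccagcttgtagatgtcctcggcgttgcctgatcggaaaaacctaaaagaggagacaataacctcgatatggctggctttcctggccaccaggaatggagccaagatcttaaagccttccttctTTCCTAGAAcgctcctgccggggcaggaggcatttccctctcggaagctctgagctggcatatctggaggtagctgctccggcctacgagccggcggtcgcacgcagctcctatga

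Of the 26 mitochondrial carriers, 6 were called higher and 6 lower with IL-4 (27.6% and 31.9% of all genes tested). The counts were 4 and 3 with IL-6 (16.1% and 23.2%) and 7 and 4 with IL-10 (18.3% and 19.5%). With IL-4+IL-6 they were 10 and 9 (35% and 38.8%), and with IL-4+IL-10 11 and 6 (38.1% and 34%). Slc25a13 (citrin), which exchanges aspartate for glutamate, rose with IL-4. It read 9.83, 9.79, 9.88, 9.70 and 9.85 with IL-4, 9.70, 9.43, 9.65, 9.60 and 9.66 with IL-4+IL-6 and 9.90, 9.64 and 9.66 with IL-4+IL-10. IL-6 and IL-10 arrays read 8.62, 8.45, 8.71, 8.55 and 8.54 and 8.61, 8.15 and 8.23, against 8.70, 8.83 and 8.98 (lowest, median and highest) unstimulated. All arrays with IL-4 lay above all without it, with differences of 0.97 ± 0.066, 0.76 ± 0.066 and 0.89 ± 0.078, and IL-6 and IL-10 alone gave -0.27 ± 0.066 and -0.52 ± 0.078. The ADP/ATP carrier Slc25a5 rose by 0.40 ± 0.029 with IL-4, 0.43 ± 0.029 with IL-4+IL-6 and 0.46 ± 0.034 with IL-4+IL-10, and its other probe set gave 0.63, 0.70 and 0.62. The iron importers Slc25a37 and Slc25a28 (mitoferrins) fell in the same groups, with differences of -0.59 ± 0.051, -0.89 ± 0.051 and -0.95 ± 0.060 for Slc25a37 and -0.38 ± 0.047, -0.44 ± 0.047 and -0.39 ± 0.056 for Slc25a28. The NAD carrier Slc25a51 rose by 0.51 ± 0.032 with IL-4+IL-6 and 0.21 ± 0.032 with IL-6, where its other probe set gave 0.33. The ATP-magnesium carrier Slc25a24 was lower with IL-4+IL-10 (-0.71 ± 0.12), and its fall with IL-10 (-0.43 ± 0.12) lost its call within the second set (-0.23).

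**Figure D4:**
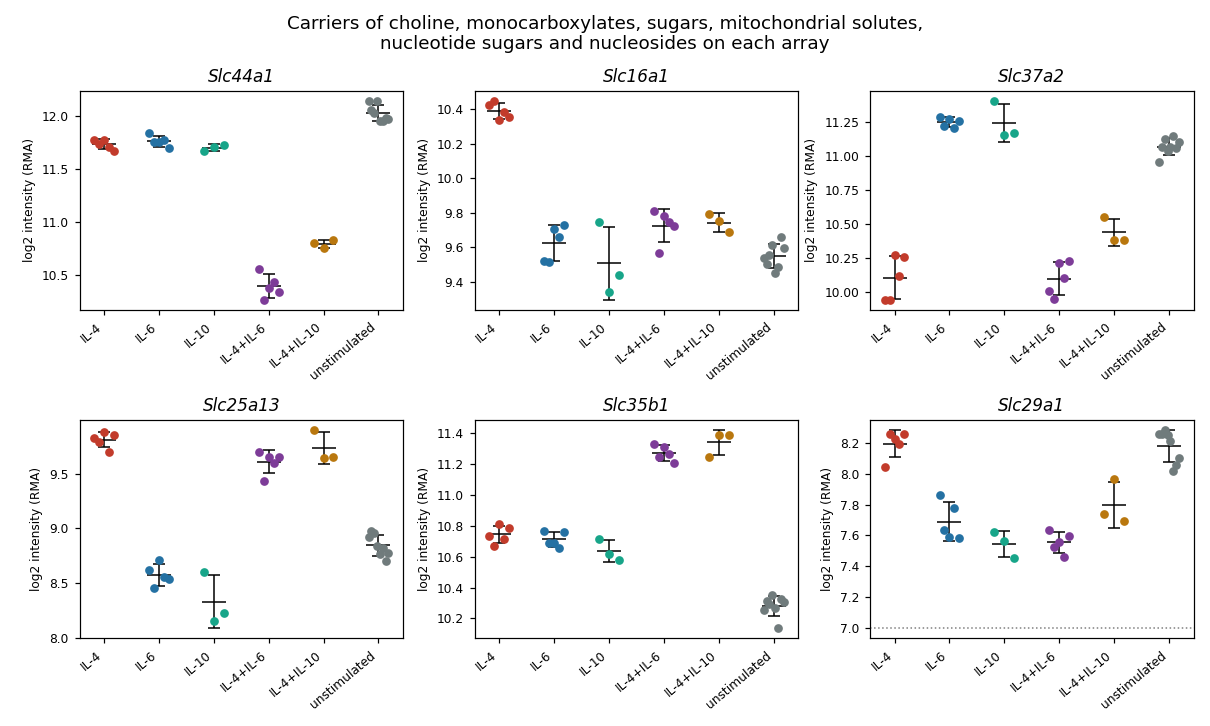
Log2 intensity (RMA) on each array of carriers of choline (Slc44a1), monocarboxylates (Slc16a1), sugar phosphates (Slc37a2), mitochondrial aspartate and glutamate (Slc25a13), ATP of the endoplasmic reticulum (Slc35b1) and nucleosides (Slc29a1), with 1 point per array, the group mean as a horizontal tick and the SD as a vertical bar. The dotted line is the filter at 6.99. Slc44a1 is lowest in both combinations and Slc16a1 is highest with IL-4 alone.

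The 19 carriers of other organic solutes were called 6 higher and 8 lower with IL-4 (27.6% and 31.9% of all genes tested). The counts were 3 and 4 with IL-6 (16.1% and 23.2%) and 3 and 4 with IL-10 (18.3% and 19.5%). With IL-4+IL-6 they were 7 and 10 (35% and 38.8%), and with IL-4+IL-10 5 and 10 (38.1% and 34%). The choline carrier Slc44a1 fell with each single cytokine and further in the combinations. It read 10.56, 10.27, 10.38, 10.44 and 10.34 with IL-4+IL-6 and 10.81, 10.76 and 10.83 with IL-4+IL-10, against 11.95, 12.004 and 12.14 (lowest, median and highest) unstimulated. IL-4, IL-6 and IL-10 arrays averaged 11.73 ± 0.045, 11.76 ± 0.051 and 11.70 ± 0.029 (SD, n = 5, 5 and 3). The differences were -1.63 ± 0.042 and -1.23 ± 0.049 for the combinations (adjusted p = 3.93e-23 and 3.49e-18) and -0.29 ± 0.042, -0.27 ± 0.042 and -0.33 ± 0.049 for IL-4, IL-6 and IL-10. The interactions were -1.07 ± 0.062 with IL-6 and -0.61 ± 0.073 with IL-10 (adjusted p = 9.33e-14 and 4.29e-07). Its other probe set gave -0.68 with IL-4, -0.55 with IL-6, -2.33 with IL-4+IL-6 and -1.60 with IL-4+IL-10.

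The lactate and pyruvate carrier Slc16a1 (MCT1) rose with IL-4, and less with IL-6 added. It read 9.81, 9.57, 9.78, 9.75 and 9.72 with IL-4+IL-6 and 10.43, 10.45, 10.34, 10.38 and 10.36 with IL-4, against 9.45, 9.54 and 9.66 (lowest, median and highest) unstimulated. The rise with IL-4 was 0.84 ± 0.054, IL-4+IL-6 lay -0.66 ± 0.060 and IL-4+IL-10 -0.65 ± 0.070 from IL-4, and the interactions were -0.74 ± 0.081 and -0.61 ± 0.095. From unstimulated, IL-4+IL-6 was 0.18 ± 0.054 and IL-4+IL-10 0.19 ± 0.065, the second not called within its set (0.16). The lysosomal carrier Slc46a3 was lower, with log2 differences of -0.79 ± 0.11 with IL-4, -1.06 ± 0.11 with IL-4+IL-6 and -1.26 ± 0.13 with IL-4+IL-10, and IL-6 or IL-10 alone gave -0.14 ± 0.11 and -0.18 ± 0.13. The heme carrier Slc48a1 rose with IL-4 (0.47 ± 0.044) and fell with IL-6 (-0.26 ± 0.044), and IL-4+IL-6 lay below IL-4 (-0.57 ± 0.049). Slc35f6 rose with every stimulation and most in the combinations (1.05 ± 0.036 and 0.90 ± 0.043), with 0.69 and 0.75 on its other probe set.

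The dicarboxylate carrier Slc13a3 differed by array set before any stimulation. It read 6.55, 5.51, 6.14, 5.80 and 6.49 with IL-4+IL-6 and 7.25, 6.96 and 7.37 with IL-4+IL-10, against 7.40, 7.56 and 8.83 (lowest, median and highest) unstimulated. The IL-4+IL-6 values lay under the filter, -1.86 ± 0.23 from all unstimulated arrays and -1.40 from those of the first set. With IL-4+IL-10 the difference was -0.76 ± 0.27 over all arrays and -1.52 within the second set, and with IL-10 it was 0.03 ± 0.27 over all arrays and -0.73 within the set, where it was called. Over all arrays the IL-4+IL-10 call was lost without replicate 2 of that group (-0.64). Its interaction with IL-6 was -0.99 ± 0.34, or -1.45 within the first set. The ascorbate carrier Slc23a2 was lower, with log2 differences of -0.48 ± 0.062 with IL-4+IL-6 and -0.61 ± 0.073 with IL-4+IL-10. The mean of its probe sets gave -0.19 and -0.28.

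**Figure D5:**
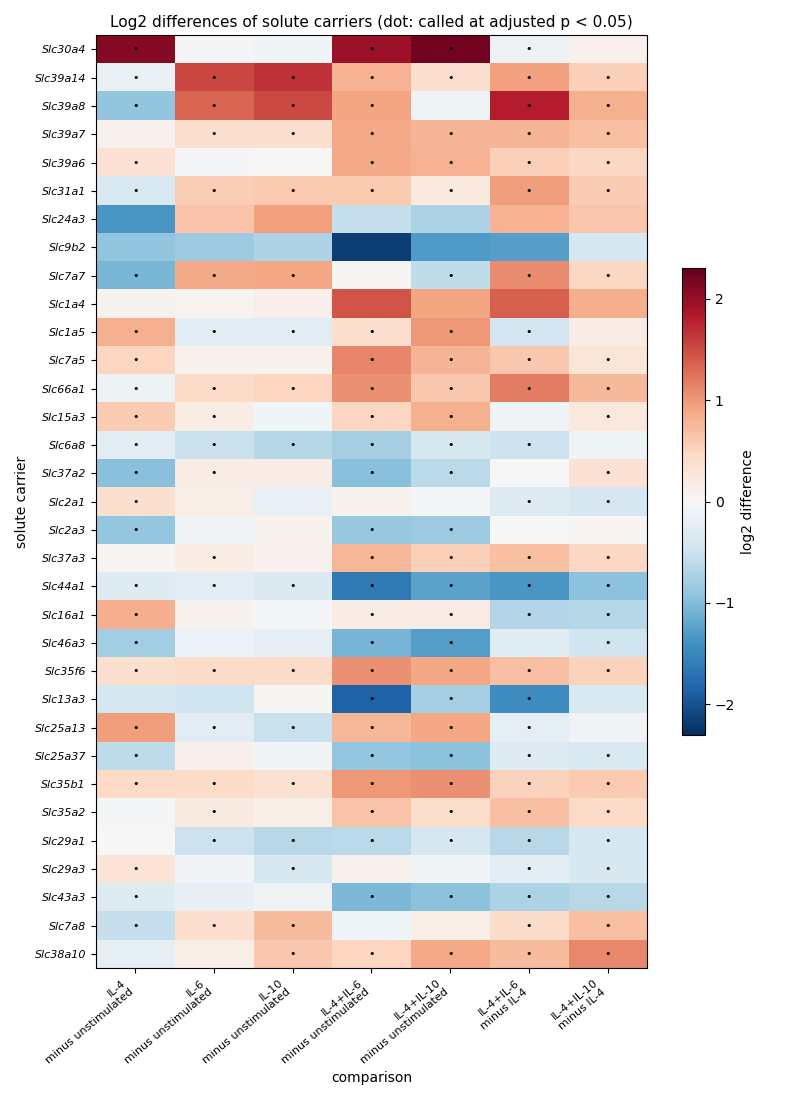
Log2 differences (colour, red higher and blue lower) of 33 solute carriers (rows) in the 7 pairwise comparisons (columns), with a dot for each call except for Slc1a4, Slc9b2 and Slc24a3, which are shown without a test. Against unstimulated arrays, Slc30a4, Slc25a13 and Slc1a5 are red in the 3 groups with IL-4 and Slc37a2, Slc2a3 and Slc46a3 are blue there, and Slc39a14 and Slc39a8 are redder with IL-6 or IL-10 alone than in the other groups.

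Transporters outside the Slc symbols were read from a list of 33 genes, of which 24 were measured and 17 tested. Of the 17, 6 were called higher and 5 lower with IL-4 (27.6% and 31.9% of all genes tested), 5 and 4 with IL-6 (16.1% and 23.2%), and 5 and 4 with IL-10 (18.3% and 19.5%). With IL-4+IL-6 the counts were 12 and 4 (35% and 38.8%), and with IL-4+IL-10 they were 11 and 3 (38.1% and 34%). Added to IL-4, IL-6 gave 11 higher and 4 lower (29.4% and 31.2%), and IL-10 gave 9 and 3 (32.7% and 24.6%). Nipa2 had the largest increase of the 17 with IL-4+IL-6 (0.77 ± 0.032) and also rose with IL-6 (0.61 ± 0.032) and IL-10 (0.61 ± 0.038). The lysosomal cystine carrier Ctns rose by 0.65 ± 0.056 and the mitochondrial pyruvate carrier subunit Mpc1 by 0.40 ± 0.043 with IL-4+IL-6. Mpc1 was called lower with IL-4 alone and IL-6 alone (-0.11 ± 0.043 each). The organic anion carrier Slco3a1 was lower with IL-4+IL-6 (-0.78 ± 0.090) and IL-4 (-0.48 ± 0.090). Over all arrays it was higher with IL-6 alone (0.34 ± 0.090) and IL-10 alone (0.34 ± 0.11).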

How the data were processed

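The authors deposited 1 table of log2 intensity values for 22690 probe sets on 29 arrays, and per the submitters' processing notes RMA was used, with GCOS 1.4 also named without its role. The log base is inferred: the highest deposited log2 value, 15.13, exceeds 11.09, the natural log of the 16-bit maximum. Array medians ran from 6.95 to 7.03; precision is limited by how many arrays a group has. Of the probe sets, 20393 were annotated with 1 gene, 691 with several and 1606 with none, and the single-gene probe set with the highest mean stood for each gene.

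The test was limma 3.58.1 in R 4.3.3 on all 29 arrays with 1 mean per group, on 7153 genes with at least 3 arrays above the median of all values, with Benjamini-Hochberg adjustment over all of them. It was tested on simulated data. The members, their substrate classes and the lists were chosen with earlier results of these data known. Genes were named by size: in each comparison the 6 called higher and 6 called lower with the largest differences among those without overlap, the largest per class in each direction, 5 per direction for interactions, and a fixed set. Their values in the other comparisons are given too, and further members are named as examples chosen after their values were seen.

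Replicate numbers pair the arrays of the first set, and IL-10 with IL-4+IL-10 in the second, whose unstimulated arrays carry other numbers. In the first set all 30 same-numbered pairs deviated together (correlations of 0.415 to 0.700), as did 3 of 3 between IL-10 and IL-4+IL-10, against 8 of 24 across sets. Alternatives covered the filter, normalization, probe set, threshold, array weights, array set, replicate block and each array left out.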

Additional observations from a re-analysis of the deposited data

Results flagged for a closer look

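Among 132 groups of 4 to 10 arrays examined, 7 held 1 array far from the others, and chance flags about 1 in 20 groups. Slc39a14 read 9.4123 on IL-6 replicate 5, with the nearest array of that group at 9.0754. Slc7a7 read 8.7905 on IL-6 replicate 1, with the nearest at 8.6397. Slc6a8 read 9.8863 on IL-4+IL-6 replicate 1 (nearest 9.6878), and Slc35a2 read 8.8410 on IL-4+IL-6 replicate 5 (nearest 9.0830). Slc2a1 read 10.8316 on IL-4 replicate 1 (nearest 11.0088). Among unstimulated arrays, Slc39a6 read 11.1465 on replicate 1 (nearest 11.2321) and Slc35b1 read 10.1350 on replicate 6 (nearest 10.2559).

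By limma's test, the effect of IL-6 differed with and without IL-4 for 30 of the 125 genes with a positive and 17 with a negative interaction. These are 24% and 13.6% of the 125, against 21.4% and 18.6% of all genes tested. Without Slc1a4, Slc9b2 and Slc24a3 they numbered 29 and 17. The non-transporters Slc4a1ap and Slc9a3r1 were among the positive ones. The positive ones with the largest values were Slc66a1 at 0.7343, Slc39a6 at 0.5895, Slc7a5 at 0.5469 and Slc37a3 at 0.5298. The negative ones were Slc44a1 at -1.0671, Slc13a3 at -0.9900, Slc16a1 at -0.7417, Slc39a14 at -0.5814 and Slc23a2 at -0.5559. The effect of IL-10 differed with and without IL-4 for 17 genes with a positive interaction (16 without Slc1a4, Slc9b2 and Slc24a3) and 16 with a negative one, in arrays of which IL-4 and IL-10 lie in different sets. These are 13.6% and 12.8% of the 125, against 15.5% and 10.1% of all genes tested. The negative ones numbered 9 without IL-4+IL-10 replicate 3, and at an adjusted p under 0.01 there were 11 positive and 8 negative. The positive ones were Slc6a8 at 0.5606, Slc39a6 at 0.4844, Slc25a13 at 0.4413 and Slc1a5 at 0.4274. The negative ones were Slc39a14 at -1.1168, Slc39a8 at -0.6963, Slc44a1 at -0.6105, Slc16a1 at -0.6051 and Slc43a3 at -0.5702, the last lost without IL-10 replicate 1 or IL-4+IL-10 replicate 3. Slc1a4, which passed the filter only through IL-4+IL-6, had interaction values of 1.3153 with IL-6 and 0.7220 with IL-10, given without a test.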

How the results depend on the processing

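Of 480 named values, the 13266 recomputed ones kept direction and side of the threshold in 12456 cases, lost the call in 630, gained one in 168 and reversed in 12, all on another probe set of the gene. The reversed values for Slc6a8 were 0.0234 with IL-4, 0.1913 with IL-4+IL-6, 0.2927 with IL-4+IL-10 and 0.1679 for IL-4+IL-6 against IL-4. For Slc35a2 they were -0.0686 and -0.0442 with IL-6, -0.0748 for IL-4+IL-6 against IL-4 and -0.0306 for the interaction with IL-6. For Slc35a4 they were 0.0259 with IL-10 and 0.0719 for IL-4+IL-10 against IL-4. The interaction with IL-6 gave -0.1362 for Slc25a51 and -0.1266 for Slc35f6. The cause was not tested. Of 333 called values, 45 lost the call without 1 array.

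With a filter at the 75th percentile 4181 genes were tested, 59 of them among the 125. Called higher and lower, with the shares of all genes tested in brackets, were 19 and 21 with IL-4 (31.4% and 34.3%), 22 and 11 with IL-6 (20.4% and 27%), 19 and 12 with IL-10 (21.9% and 23.7%), 28 and 22 with IL-4+IL-6 (38.2% and 40.8%), and 27 and 21 with IL-4+IL-10 (41.1% and 36.8%). Against IL-4 they were 23 and 18 with IL-4+IL-6 (32.2% and 34.8%) and 20 and 13 with IL-4+IL-10 (35.2% and 28.4%), and by interaction 15 and 11 with IL-6 (24.7% and 22.4%) and 10 and 11 with IL-10 (20.2% and 14.3%). With a log2 difference of at least 1 required, the counts were 1 and 2 with IL-4 (1.93% and 2.17%), 2 and 0 with IL-6 (1.29% and 0.391%), 2 and 0 with IL-10 (1.31% and 0.769%), 5 and 6 with IL-4+IL-6 (3.98% and 4.92%), and 2 and 3 with IL-4+IL-10 (3.7% and 3.84%). Against IL-4 they were 4 and 3 with IL-4+IL-6 (2.6% and 2.75%) and 1 and 0 with IL-4+IL-10 (1.8% and 1.23%), and by interaction 1 and 1 with IL-6 (1.48% and 1.5%) and 0 and 1 with IL-10 (0.769% and 0.923%). Without Slc1a4, Slc9b2 and Slc24a3 they were 1 and 1 with IL-4, 4 and 5 with IL-4+IL-6 and 2 and 2 with IL-4+IL-10. For IL-4+IL-6 against IL-4 they were then 3 and 2, and by interaction with IL-6 0 and 1. The remaining counts stayed the same. At an adjusted p under 0.01, 15 were lower for IL-4+IL-10 against IL-4 (19.1% of all genes), and the interaction with IL-10 had 11 higher and 8 lower (8.19% and 6.25%). For IL-4+IL-10 against IL-4, 26 were higher and 12 lower when the array set was a term, and IL-10 had 8 lower with only arrays of 1 set (shares of all genes stand in the results above). Leaving out 1 array, the lower calls of the interaction with IL-10 ran from 9, without IL-4+IL-10 replicate 3, to 18. With the replicate block the counts were 33 higher and 41 lower with IL-4 and stayed within 1.5 times in all other comparisons. A replicate block within the first array set, added after seeing the data, gave 35 and 43. The block over all arrays also joined equal numbers across array sets, where 8 of 24 pairs deviated together. It left unstimulated replicates 6 to 8 in blocks of their own. So it is no check of pairing for comparisons that use the IL-10 groups.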
